A study of Homo sapiens with 12 samples.

Results

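The genes described here are 44 genes of mitosis, from cyclin-dependent kinase 1 and its cyclins to the proteins that divide the cell. They were taken by gene symbol from a list of names and not by any measured value. All 44 were found in both deposited expression tables, among 13588 genes present in either. All 44 had a mean of at least 1 FPKM (mapped fragments of a transcript divided by its length and by the total of its library) in each set of libraries, so none was lost to the filter on low values.

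The study measured RNA in 12 libraries of MCF-12A, an immortalised but non-tumorigenic epithelial cell line from human breast. Of these, 6 libraries were labelled with the agent TGFbeta1, the secreted cytokine transforming growth factor beta 1, and 6 were labelled control. They come in a pair of sets, the first with libraries 1 to 3 from either group and the second with libraries 4 to 6, and each set was normalised and filtered on its own. The labels state neither dose nor length of treatment, and they do not say that replicates came from separate cultures. A p-value here therefore reflects the spread among libraries only, and that spread may be technical. No read counts were used, and depth and counting error are unknown.

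Known TGFbeta targets were looked at before the mitotic genes. Their list was chosen with earlier results of these data known, so it is not an independent check of the library labels. This list of 10 direct TGFbeta response genes, among them FN1 (fibronectin), ITGB6 (an integrin subunit) and PMEPA1 (a feedback inhibitor of the pathway), had 10 members called higher in the first set, with a median log2 change of 2.60. Of all genes 9.00% were called higher there. Of the same 10 genes 0 were called by limma in the second set, where only 0.170% of all genes were called higher and 0.151% lower. At an unadjusted p under 0.05, 1 of the 10 was higher and 4 lower, where 5.79% and 5.39% of all genes were. The median log2 change of the 10 was -0.14 there. Results for "TGFbeta1 libraries" of the second set therefore stand for libraries so labelled, and every result below is given for each set on its own. Epithelial markers were present throughout: 9 of 9 had values in the first set, summing to 1904 to 2208 FPKM in TGFbeta1 libraries and 2501 to 3237 FPKM in controls. For 8 of 9 there were values in the second set, summing to 1796 to 1964 FPKM in TGFbeta1 libraries and 1696 to 1936 FPKM in controls. Fibroblast markers had values for 1 of 6 genes in the first set (DCN, the matrix proteoglycan decorin), at 1.72 to 3.67 FPKM in TGFbeta1 libraries and 0.489 to 0.685 FPKM in controls. Values for 2 of 6 fibroblast markers were present in the second set, summing to 11.3 to 15.1 FPKM in TGFbeta1 libraries and 28.1 to 32.1 FPKM in controls. Leukocyte markers had values for 2 of 6 genes in the first set (CD68 and LYZ), summing to 14.4 to 18.6 FPKM in TGFbeta1 libraries and 22.0 to 23.5 FPKM in controls. For the second set CD68 alone had values, at 6.84 to 14.8 FPKM in TGFbeta1 libraries and 13.1 to 15.1 FPKM in controls. The only endothelial marker of 4 with values, KDR, stayed at or under 0.868 FPKM in all 12 libraries. The part of these markers in the mitotic values was not tested.

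Mitosis separates the replicated chromosomes into daughter cells. CDK1 bound to cyclin A or cyclin B drives entry, the kinases of the Aurora and Polo families build the spindle, and the spindle assembly checkpoint holds the anaphase-promoting complex in check until kinetochores are attached. Many of these genes are transcribed together late in the cell cycle, through FOXM1, B-MYB and the DREAM repressor complex, which acts at a promoter element called the cell cycle genes homology region (CHR). TGFbeta is known as a growth inhibitor of normal epithelial cells, acting chiefly in G1. In whole-culture RNA a smaller share of dividing cells and less RNA per dividing cell cannot be told apart.

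Promoter sequences of RefSeq (assembly GRCh38.p14), which run from 250 bases before to 50 bases after each gene start, were available for 36 of the 44 genes, in 46 windows. The 8 genes with no window used here were AURKA, BIRC5, BUB3, FOXM1, RACGAP1, TPX2, TTK and UBE2C. A CHR, searched as TTTGAA or TTCGAA on both strands, was found in 32 of the 46 windows (69.6%), against 5742 of all 35116 windows of the same length (16.4%). The CCAAT box (CCAAT, both strands), which often lies upstream of a CHR, was in 34 of the 46 windows (73.9%), against 34.6% of all windows. Both motifs were in 26 windows (56.5%), against 6.4% of all windows. The motifs were searched separately, so matches that overlap each other count for both, and a match is only a match of letters. The following 30-base stretches, read 5′ to 3′ on the strand of the gene, show the CHR in capitals in the 6 genes that passed a test in either comparison below, and in PLK1 and MKI67 as familiar markers of mitosis and proliferation.
CENPA (chr2:26786026-26786055, + strand): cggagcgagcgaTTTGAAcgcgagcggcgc
NCAPG (chr4:17810932-17810961, + strand): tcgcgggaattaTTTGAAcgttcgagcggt
CKS1B (chr1:154974639-154974668, + strand): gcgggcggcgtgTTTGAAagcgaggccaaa
CCNB2 (chr15:59105105-59105134, + strand): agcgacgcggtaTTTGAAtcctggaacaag
CDC20 (chr1:43358904-43358933, + strand): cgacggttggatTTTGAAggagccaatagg
ASPM (chr1:197146765-197146794, - strand): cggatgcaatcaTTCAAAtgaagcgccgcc
PLK1 (chr16:23678848-23678877, + strand): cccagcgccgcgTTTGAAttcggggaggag
MKI67 (chr10:128126435-128126464, - strand): tcttcgttttcgTTTGAAttgggcgggcgc
In CCNB2, PLK1 and MKI67 the first base of the CHR lay 29 bases before the annotated start, in CKS1B 30, in NCAPG 35 and in CENPA 18 bases before it. In CDC20 it lay 65 bases before the start. ASPM differs in that its motif is on the opposite strand, 113 bases before the start, and so reads TTCAAA here.

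Few of the mitotic genes passed a test in either set. Most of their log2 changes were below 0 in the first set and above 0 in the second. Log2 changes are TGFbeta1 over control on the log2(FPKM + 1) scale, tested by limma with Benjamini-Hochberg adjustment over all genes. In the first set 1 of 44 was called higher (ASPM), where 9.00% of all 10454 genes tested were called higher. There 2 of 44 were called lower (CKS1B and NCAPG), where 11.9% of all genes were called lower. The shares of mitotic genes called were thus 2.27% higher and 4.55% lower. At an unadjusted p under 0.05, 1 of the 44 was higher and 9 lower, where 14.2% of all genes were higher and 20.8% lower. Across the 44 genes 16 changes were above 0 and 28 below, with a median of -0.03 and a range of -0.75 to 0.31, and the median over all genes was -0.06 (43.6% of all genes above 0). The direction of that small median depended on the scaling of the libraries, being 0.03 to 0.06 under each of the 3 others tried.

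In the second set 0 of 44 genes were called in either direction by limma, where 0.170% of 10579 genes were called higher and 0.151% lower. At an unadjusted p under 0.05, 14 of the 44 were higher and 0 lower, where 5.79% of all genes were higher and 5.39% lower. Of the 44 changes 38 were above 0 and 6 below, against 5285 of all 10579 genes above 0. The median was 0.14 and the range -0.20 to 0.60, against a median of 0 over all genes. The 3 TGFbeta1 libraries were all above the 3 controls for 18 of the 44 genes and all below for 0, where this held for 9.71% and 9.62% of all genes. In the first set the TGFbeta1 libraries were all above the controls for 4 and all below for 10 of the 44, where it held for 18.2% and 25.1% of all genes. Genes that are transcribed together move together, so these counts do not rest on 44 independent observations.

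**Figure D1:**
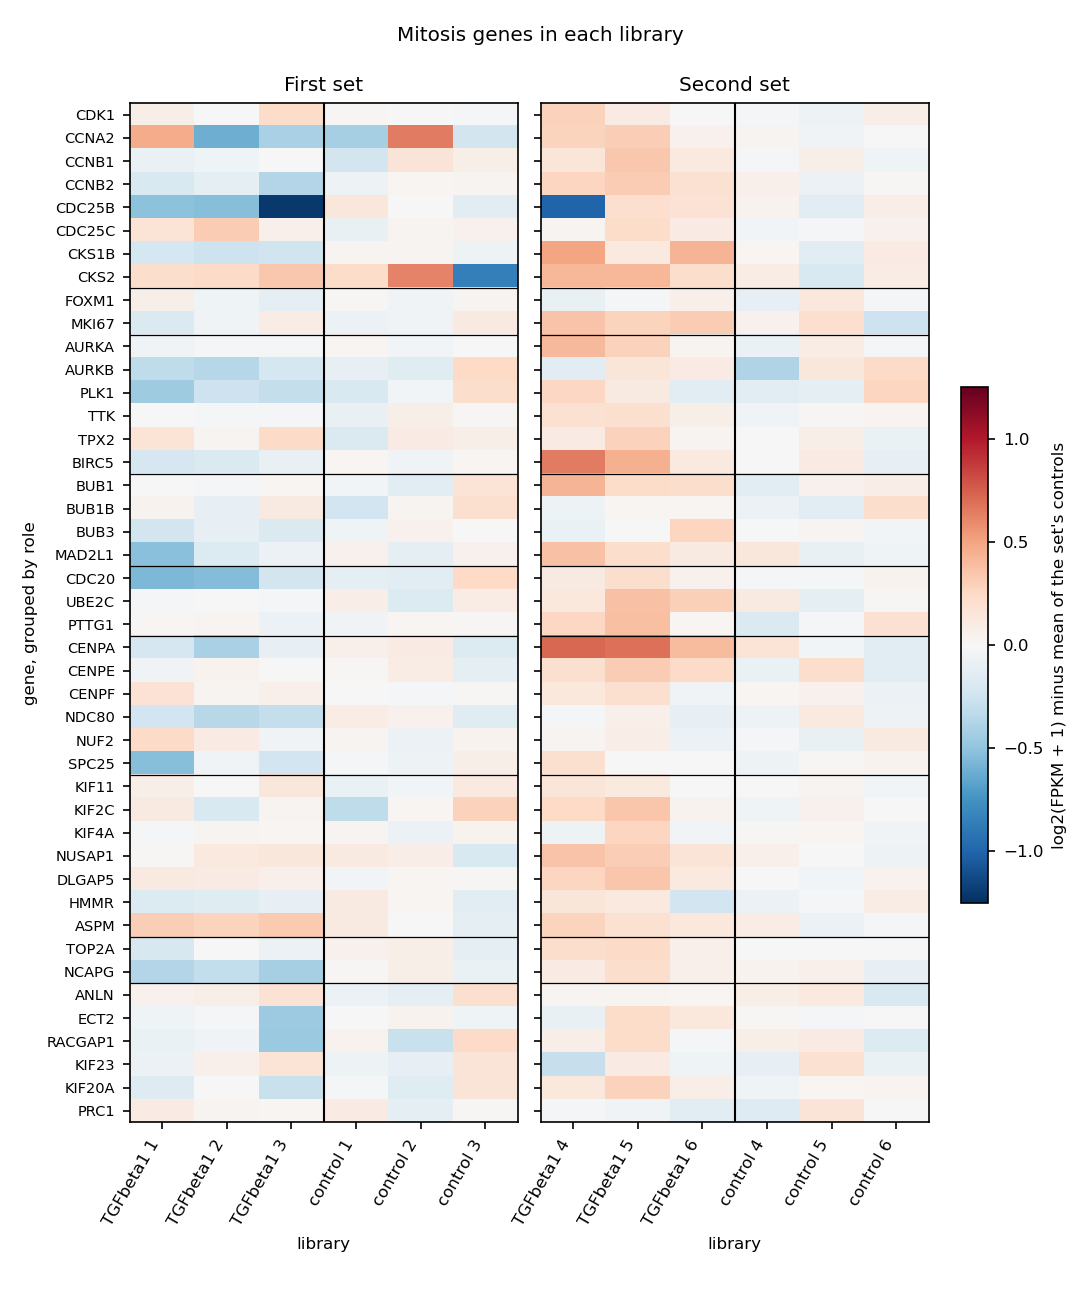
Log2(FPKM + 1) of each of the 44 mitotic genes in each of the 12 libraries, minus the mean of the 3 controls of its set, with genes in rows by role and TGFbeta1 libraries left of the controls in each set. The median over the 44 genes lay at 0.15, 0.22 and 0.07 in TGFbeta1 libraries 4, 5 and 6, and at -0.04, -0.03 and -0.03 in TGFbeta1 libraries 1, 2 and 3.

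Individual libraries contributed unequally. In the second set TGFbeta1 library 5 held the highest value of the 6 libraries for 21 of the 44 genes, TGFbeta1 library 4 for 13 and TGFbeta1 library 6 for 1. Control libraries 4, 5 and 6 held the highest value for 0, 5 and 4 genes. The median over the 44 genes, as log2 distance from the control mean, was 0.15, 0.22 and 0.07 in TGFbeta1 libraries 4, 5 and 6, against -0.003, 0.014 and 0.003 in controls 4, 5 and 6. Leaving out 1 library at a time gave medians of the group change between 0.10 and 0.19. In the first set those medians were -0.04, -0.03 and -0.03 in TGFbeta1 libraries 1 to 3, against 0.002, 0 and 0.028 in controls 1 to 3.

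**Figure D2:**
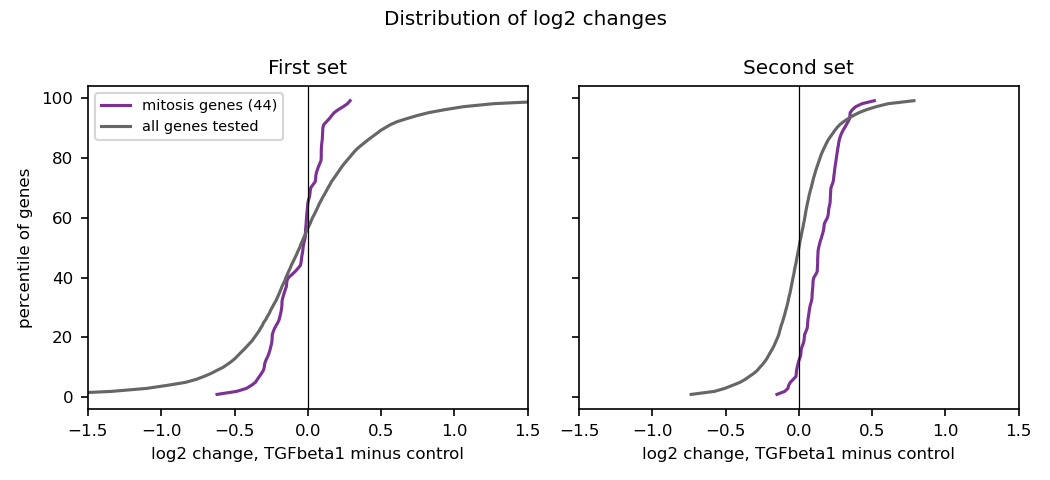
Distribution of log2 changes, TGFbeta1 over control, for the 44 mitotic genes and for all genes tested, in each set. The median of the mitotic genes lay at -0.03 for the first set and at 0.14 for the second, where the medians of all genes were -0.06 and 0.

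Counts by role group are small and stand beside the same shares over all genes as above. At an unadjusted p under 0.05 these were 14.2% higher and 20.8% lower in the first set. In the second they were 5.79% and 5.39%. The regulators of CDK1 form the largest role group, with 8 genes. In the first set 0 were called higher and 1 lower, CKS1B, with a median log2 change of -0.12. For the second set 0 were called and the median was 0.21. Of the 8, 0 were higher and 3 lower at an unadjusted p under 0.05 in the first set, and 5 higher and 0 lower in the second. All TGFbeta1 libraries were above the controls there for 5 of the 8, where this held for 9.71% of all genes. CDK1, the kinase that drives entry into mitosis, had 104, 98.3 and 116 FPKM in TGFbeta1 libraries of the first set, against 99.96, 98.7 and 98.0 FPKM in controls. The groups overlapped, with a log2 change of 0.10 (SE 0.08, limma adjusted p 0.409). Second-set values of CDK1 were 74.9, 65.5 and 61.1 FPKM in TGFbeta1 libraries and 60.5, 58.3 and 64.5 FPKM in controls. They overlapped again, with a log2 change of 0.13 (SE 0.09, limma adjusted p 0.643).

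CCNB1 (cyclin B1), the main partner of CDK1 in mitosis, had 107, 109.9 and 114 FPKM in TGFbeta1 libraries of the first set, against 97.2, 128 and 119.8 FPKM in controls. The controls spread on both sides of the TGFbeta1 libraries. Its second-set values were 43.6, 49.6 and 42.7 FPKM in TGFbeta1 libraries and 38.6, 41.2 and 37.7 FPKM in controls. All 3 TGFbeta1 libraries were higher there, with a log2 change of 0.20 (SE 0.08) that did not pass the threshold (limma adjusted p 0.415).

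CCNB2 (cyclin B2), a second B-type partner of CDK1, had TGFbeta1 libraries on opposite sides of the controls in the 2 sets. The first set had 29.9, 31.3 and 26.3 FPKM in TGFbeta1 libraries, against 32.6, 34.8 and 35.0 FPKM in controls. The second set had 24.6, 25.4 and 23.2 FPKM in TGFbeta1 libraries, against 21.1, 19.1 and 20.4 FPKM in controls. In neither set did the groups overlap, and neither log2 change was called (-0.23, SE 0.09, limma adjusted p 0.127 in the first set, and 0.26, SE 0.07, limma adjusted p 0.259 in the second).

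CKS1B, a small subunit of cyclin-dependent kinases that also helps destroy the CDK inhibitor p27, was the most abundant of the 44 by FPKM in first-set controls. It fell in the first set, to 149, 145 and 147 FPKM in TGFbeta1 libraries, against 178, 178 and 167 FPKM in controls. The log2 change was -0.24 (SE 0.05, limma adjusted p 0.0287). That call was kept without control 3 and lost without any other library of the first set, with adjusted p from 0.018 to 0.096, and it was lost under each of the 3 other scalings and without a variance trend. Second-set values of CKS1B were 124, 95.5 and 118 FPKM in TGFbeta1 libraries, against 89.6, 80.1 and 94.4 FPKM in controls. Every TGFbeta1 library was above every control there, with a log2 change of 0.35 (SE 0.12) that was not called (limma adjusted p 0.376).

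Among the other CDK1 regulators, CDC25B and CCNA2 were singled out after their values were seen, because single libraries move their means. CDC25B, a phosphatase that activates cyclin-CDK complexes, had the largest negative change of the 44 in the first set. It had 44.4, 43.8 and 27.0 FPKM in TGFbeta1 libraries, against 70.5, 63.5 and 58.1 FPKM in controls, with a log2 change of -0.75 (SE 0.21) that was not called (limma adjusted p 0.0568). Second-set values of CDC25B were 51.1, 119 and 117 FPKM in TGFbeta1 libraries and 106, 94.2 and 109 FPKM in controls, so that TGFbeta1 library 4 alone lay low. CCNA2 (cyclin A2) had 35.9, 16.6 and 19.1 FPKM in TGFbeta1 libraries of the first set and 19.1, 41.0 and 21.8 FPKM in controls, with 1 library of each group well above the others.

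For FOXM1 and MKI67 neither set gave a called change. FOXM1, the transcription factor that drives many genes of this list, had 24.7, 22.4 and 21.3 FPKM in TGFbeta1 libraries of the first set, against 23.6, 22.6 and 24.0 FPKM in controls. Its second-set values were 5.72, 6.07 and 6.47 FPKM in TGFbeta1 libraries and 5.67, 6.83 and 6.02 FPKM in controls. The groups overlapped in both, with log2 changes of -0.04 (SE 0.08) and -0.02 (SE 0.09). MKI67 encodes the Ki-67 protein, a coat of mitotic chromosomes used to count proliferating cells. It had 39.4, 43.4 and 47.8 FPKM in TGFbeta1 libraries of the first set, against 42.5, 43.4 and 48.5 FPKM in controls, an overlap over nearly the whole range. Second-set values of MKI67 were 18.8, 17.8 and 18.3 FPKM in TGFbeta1 libraries, against 15.0, 16.8 and 11.9 FPKM in controls. These did not overlap, and the log2 change of 0.32 (SE 0.13) was not called (limma adjusted p 0.431).

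The mitotic kinases and their partners number 6, and 0 were called in either set by limma. At an unadjusted p under 0.05, 0 were higher and 2 lower in the first set, and 1 higher and 0 lower in the second. Their median log2 change was -0.10 for the first set and 0.15 for the second. AURKA (Aurora A), the kinase of centrosomes and spindle poles, had 39.1, 39.7 and 39.6 FPKM in TGFbeta1 libraries of the first set, against 41.0, 39.4 and 40.5 FPKM in controls. Its SD there was 0.33 FPKM in TGFbeta1 libraries and 0.81 FPKM in controls, so this is a close overlap. Second-set values of AURKA were 26.8, 24.6 and 20.5 FPKM in TGFbeta1 libraries and 18.9, 21.4 and 19.9 FPKM in controls, with library 6 inside the range of the controls. PLK1 (Polo-like kinase 1), needed for spindle assembly and for exit from mitosis, had 47.2, 53.9 and 52.4 FPKM in TGFbeta1 libraries of the first set, against 56.4, 63.0 and 75.4 FPKM in controls. All 3 TGFbeta1 libraries were lower, with a log2 change of -0.33 (SE 0.12) that was not called (limma adjusted p 0.118). Second-set values of PLK1 were 16.5, 14.9 and 12.2 FPKM in TGFbeta1 libraries and 12.2, 12.4 and 16.7 FPKM in controls, which overlapped. AURKB (Aurora B) and its partner BIRC5 (survivin), both of the chromosomal passenger complex, had log2 changes of -0.30 and -0.16 for the first set and of 0.04 and 0.40 for the second, none called.

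Of the 4 spindle assembly checkpoint genes 0 were called in either set, with medians of -0.09 for the first set and 0.15 for the second. Single genes passed an unadjusted p under 0.05, 1 lower in the first set and 1 higher in the second. BUB1, the checkpoint kinase at kinetochores, had 27.8, 27.5 and 28.2 FPKM in TGFbeta1 libraries of the first set, against 27.2, 25.2 and 31.5 FPKM in controls. The log2 change was 0.00 (SE 0.10). Second-set values of BUB1 were 9.07, 7.78 and 7.73 FPKM in TGFbeta1 libraries, against 5.79, 6.79 and 6.95 FPKM in controls, with no overlap and a log2 change of 0.29 (SE 0.10, limma adjusted p 0.384). The related BUB1B, also a checkpoint protein, had log2 changes of 0.02 for the first set and -0.00 for the second. MAD2L1, which binds and inhibits CDC20, had -0.26 for the first set and 0.23 for the second, and neither was called.

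CDC20 activates the anaphase-promoting complex, the ubiquitin ligase that destroys cyclin B and securin. In the first set it had 94.8, 96.1 and 119.1 FPKM in TGFbeta1 libraries, against 129, 128 and 167 FPKM in controls. All 3 TGFbeta1 libraries were below all controls, and the log2 change of -0.44 (SE 0.14) was not called (limma adjusted p 0.0882). Second-set values of CDC20 were 69.9, 75.3 and 67.2 FPKM in TGFbeta1 libraries, against 63.8, 63.4 and 66.8 FPKM in controls. Here the TGFbeta1 libraries were all above, by a log2 change of 0.13 (SE 0.06, limma adjusted p 0.498). UBE2C, the ubiquitin-conjugating enzyme of this complex, and PTTG1 (securin) had log2 changes of -0.02 and -0.01 for the first set and 0.27 and 0.22 for the second, none called.

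Among 6 centromere and kinetochore genes 0 were called within a set, with medians of -0.12 for the first set and 0.08 for the second. Without adjustment 1 was lower in the first set and 1 higher in the second at a p under 0.05. CENPA is the histone H3 variant that marks centromeres. It had 7.84, 6.72 and 8.54 FPKM in TGFbeta1 libraries of the first set, against 9.74, 10.04 and 8.10 FPKM in controls, which overlapped. Second-set values of CENPA were 5.17, 5.04 and 3.93 FPKM in TGFbeta1 libraries, against 3.22, 2.66 and 2.42 FPKM in controls. Its log2 change there, 0.60 (SE 0.13), was the largest of the 44 and was not called (limma adjusted p 0.202). Its counterpart in the first set was -0.24 (SE 0.12, limma adjusted p 0.221). CENPF, a large kinetochore protein of G2 and mitosis, had 39.0, 35.0 and 35.8 FPKM in TGFbeta1 libraries of the first set, against 34.2, 34.0 and 34.7 FPKM in controls. Those did not overlap, yet the log2 change was only 0.09 (SE 0.07, limma adjusted p 0.388). Second-set values of CENPF were 25.6, 26.8 and 22.5 FPKM in TGFbeta1 libraries and 23.6, 24.2 and 22.0 FPKM in controls, which overlapped.

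Spindle motors and microtubule proteins, 7 genes, were the role group with a first-set median above 0 (0.07), and their second-set median was 0.20. Without adjustment 1 was higher and 0 lower in the first set, and 3 higher and 0 lower in the second, at a p under 0.05. ASPM, a spindle-pole protein whose loss causes primary microcephaly in people, was the member called higher. ASPM had 23.2, 22.8 and 23.7 FPKM in TGFbeta1 libraries of the first set, against 20.2, 18.6 and 17.1 FPKM in controls. The log2 change was 0.31 (SE 0.08, limma adjusted p 0.0474), and it lost the call when any 1 of the 6 libraries was left out, with adjusted p from 0.0519 to 0.122. The call was also lost without a variance trend and when only transcripts present in both tables were summed. Second-set values of ASPM were 11.9, 11.1 and 10.6 FPKM in TGFbeta1 libraries, against 10.2, 9.06 and 9.47 FPKM in controls. No library overlapped there either, and the log2 change was 0.20 (SE 0.08, limma adjusted p 0.426). Different transcripts of ASPM carried the 2 changes. In the first set ASPM-001 had a log2 change of 0.41 and ASPM-201 one of -0.10. In the second set the transcript of ASPM-001, listed there as ASPM-203, had 0.06 and ASPM-201 had 0.69. ASPM-201 was at 0.014 FPKM in control 5, and none of these transcripts was called.

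KIF11 (Eg5), the motor that pushes spindle poles apart, had 28.9, 27.7 and 30.4 FPKM in TGFbeta1 libraries of the first set, against 25.9, 26.8 and 30.0 FPKM in controls. Its second-set values were 18.3, 17.95 and 16.3 FPKM in TGFbeta1 libraries and 16.3, 16.7 and 16.0 FPKM in controls. Its log2 changes of 0.07 (SE 0.08) and 0.09 (SE 0.07) were not called. DLGAP5 (HURP), which stabilises the spindle fibres attached to kinetochores, shared with ASPM the pattern of TGFbeta1 libraries all above the controls in both sets. It had 28.5, 28.3 and 27.6 FPKM in TGFbeta1 libraries of the first set, against 25.6, 26.8 and 26.5 FPKM in controls. Second-set values of DLGAP5 were 14.3, 15.1 and 12.8 FPKM in TGFbeta1 libraries, against 11.7, 11.4 and 12.1 FPKM in controls. Neither log2 change was called (0.09, SE 0.06, limma adjusted p 0.323 in the first set, and 0.25, SE 0.08, limma adjusted p 0.34 in the second). NUSAP1, which bundles microtubules near chromosomes, had 29.5, 31.9 and 32.3 FPKM in TGFbeta1 libraries of the first set, against 31.6, 31.0 and 25.5 FPKM in controls. Its second-set values were 21.6, 20.7 and 18.7 FPKM in TGFbeta1 libraries, against 17.4, 16.5 and 15.9 FPKM in controls. The second set did not overlap, with a log2 change of 0.28 (SE 0.07, limma adjusted p 0.29).

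Chromosome structure was represented by 2 genes, and 1 of them fell. NCAPG, a subunit of condensin I, which compacts mitotic chromosomes, fell in the first set to 15.4, 16.2 and 15.0 FPKM in TGFbeta1 libraries, against 20.5, 21.3 and 19.0 FPKM in controls. The log2 change was -0.36 (SE 0.07, limma adjusted p 0.0232). The call was kept without control 3 and lost without any other library, with adjusted p from 0.0218 to 0.0755, and it was lost under equal-sum and quantile scaling. Second-set values of NCAPG were 10.6, 11.5 and 10.3 FPKM in TGFbeta1 libraries, against 10.1, 10.2 and 9.00 FPKM in controls, a log2 change of 0.13 (SE 0.08, limma adjusted p 0.616). TOP2A, the topoisomerase that untangles sister chromatids, had 87.4, 101 and 95.3 FPKM in TGFbeta1 libraries of the first set, against 104, 105 and 92.1 FPKM in controls, which overlapped. Second-set values of TOP2A were 61.3, 62.0 and 54.9 FPKM in TGFbeta1 libraries, against 52.5, 52.5 and 52.3 FPKM in controls. Those 3 controls lay within 0.2 FPKM of each other and below every TGFbeta1 library, and the log2 change was 0.17 (SE 0.06, limma adjusted p 0.388).

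The 6 genes of the spindle midzone and cytokinesis had medians of -0.05 for the first set and 0.06 for the second, and 0 were called by limma, or passed an unadjusted p under 0.05, in either set. ANLN (anillin), a scaffold of the contractile ring, had 56.6, 57.4 and 62.1 FPKM in TGFbeta1 libraries of the first set, against 51.7, 49.9 and 62.8 FPKM in controls. Its second-set values were 24.4, 24.4 and 24.2 FPKM in TGFbeta1 libraries and 24.9, 25.9 and 20.7 FPKM in controls. Both sets overlapped, with log2 changes of 0.10 (SE 0.10) and 0.03 (SE 0.09). ECT2 and RACGAP1, which together activate RhoA at the cleavage site, had log2 changes of -0.18 and -0.20 for the first set and 0.09 and 0.10 for the second, none called. PRC1, which bundles midzone microtubules, and the midzone motor KIF23 had small changes of the opposite order, at 0.05 and 0.06 for the first set and -0.07 and -0.08 for the second.

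**Figure D3:**
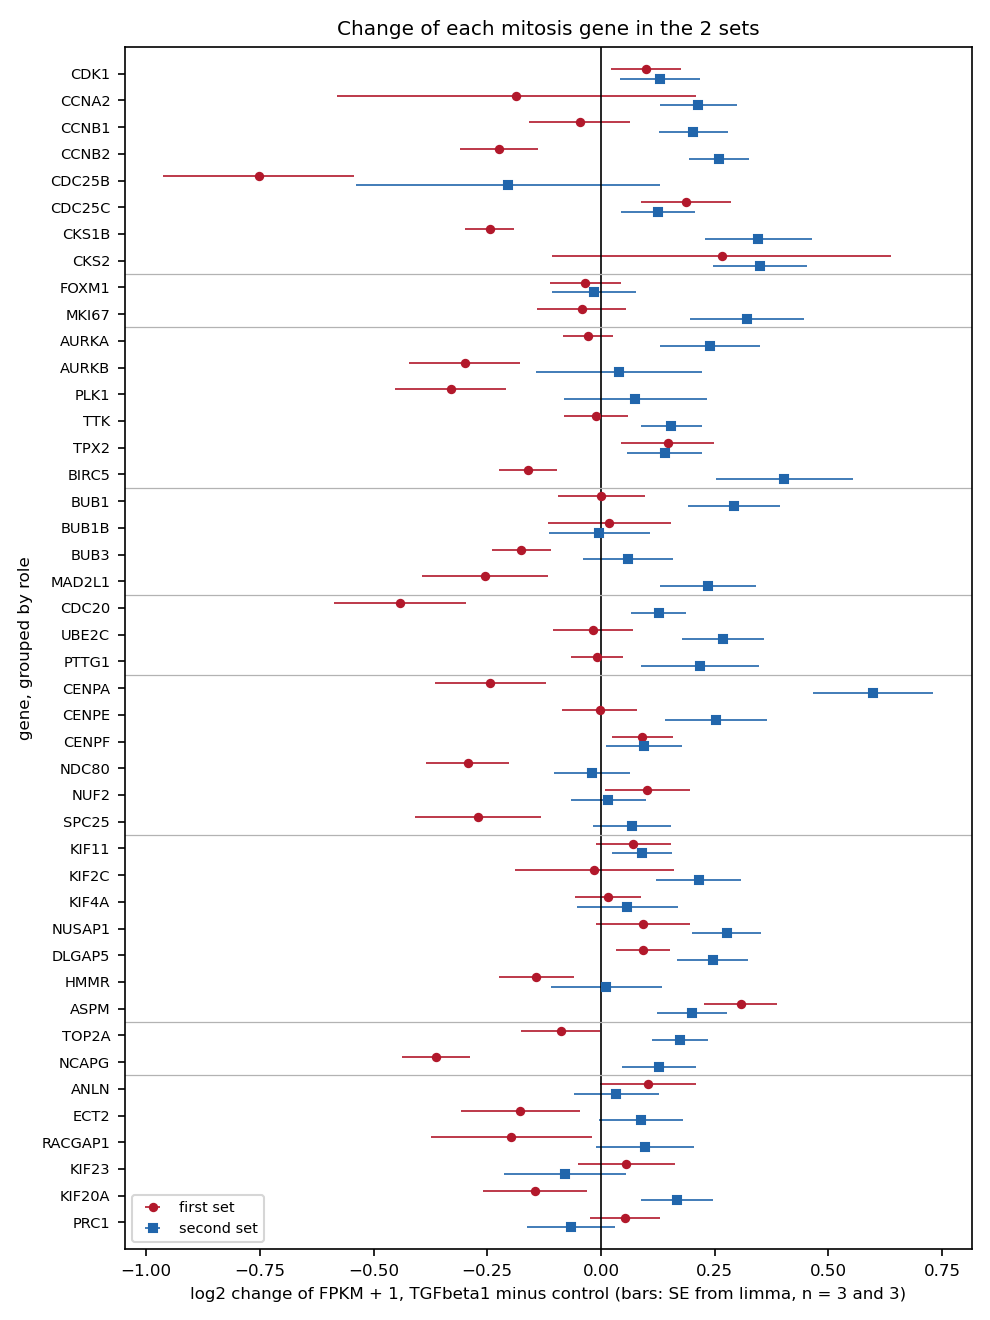
Log2 change, TGFbeta1 over control, of each of the 44 mitotic genes in the first and the second set, with bars of 1 SE and genes ordered by role. ASPM (0.31), CKS1B (-0.24) and NCAPG (-0.36) passed the test in the first set and 0 genes passed it in the second.

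Each gene has a change in both sets, from libraries that the sets do not share. Of the 44 genes 25 had a negative change in the first set and a positive one in the second, 13 were positive in both, 3 were positive then negative (BUB1B, KIF23, PRC1) and 3 were negative in both (CDC25B, FOXM1, NDC80). Shares of all genes with these sign pairs were not computed, but 56.4% of all genes were negative in the first set alone. The counts also hold for the main scaling only. The first-set median of the 44 was 0.026, 0.055 and 0.049 under median-of-ratios, equal-sum and quantile scaling. By library values, ASPM and DLGAP5 had all TGFbeta1 libraries above the controls in both sets, which held for 1.94% of the 9990 genes tested in each set. In 5 of the 44 genes they were all below the controls in the first set and all above in the second: BIRC5, CCNB2, CDC20, CKS1B and NCAPG. That joint pattern held for 2.86% of the same 9990 genes. The groups overlapped in both sets for 19 genes, and the same share over all genes was not computed. In each set 43 of the 44 changes were within 0.5 of 0 on the log2 scale. Among all genes the percentiles 5 and 95 were -0.836 and 0.824 in the first set, and -0.403 and 0.41 in the second.

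The difference between the sets was tested as an interaction, the change in the second set minus the change in the first, so that a positive value means a more positive change in the second. It was called positive for 5 of the 44 genes (11.4%) and negative for 0, where 7.56% of 10548 genes were called positive and 6.06% negative. The values were above 0 for 36 genes and below for 8, against 55.3% of all genes above 0. Their median was 0.25, against 0.06 over all genes, and it was 0.14 and 0.15 under equal-sum and quantile scaling. CENPA had the largest difference, 0.84 (SE 0.19, limma adjusted p 0.0139). Its transcripts in the second set were low and moved in opposite directions. CENPA-201 had a log2 change of 1.18 at a mean of 2.07 FPKM, and CENPA-202 one of -0.32 at 1.67 FPKM, neither called. CKS1B differed by 0.59 (SE 0.14, limma adjusted p 0.018) and CDC20 by 0.57 (SE 0.17, limma adjusted p 0.0496). The differences of NCAPG and CCNB2 were 0.49 (SE 0.11, limma adjusted p 0.0172) and 0.49 (SE 0.11, limma adjusted p 0.018). The calls of CENPA, CKS1B, NCAPG and CCNB2 held with any 1 of the 12 libraries left out, and that of CDC20 held in 3 of the 12 such fits. Of the 10 other settings CENPA kept its call in 10, CKS1B and NCAPG in 9, CCNB2 in 8 and CDC20 in 3. Under equal-sum scaling CCNB2 and NCAPG were among those that lost it, and under quantile scaling CKS1B was. For ASPM the difference was -0.11 (limma adjusted p 0.613).

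**Figure D4:**
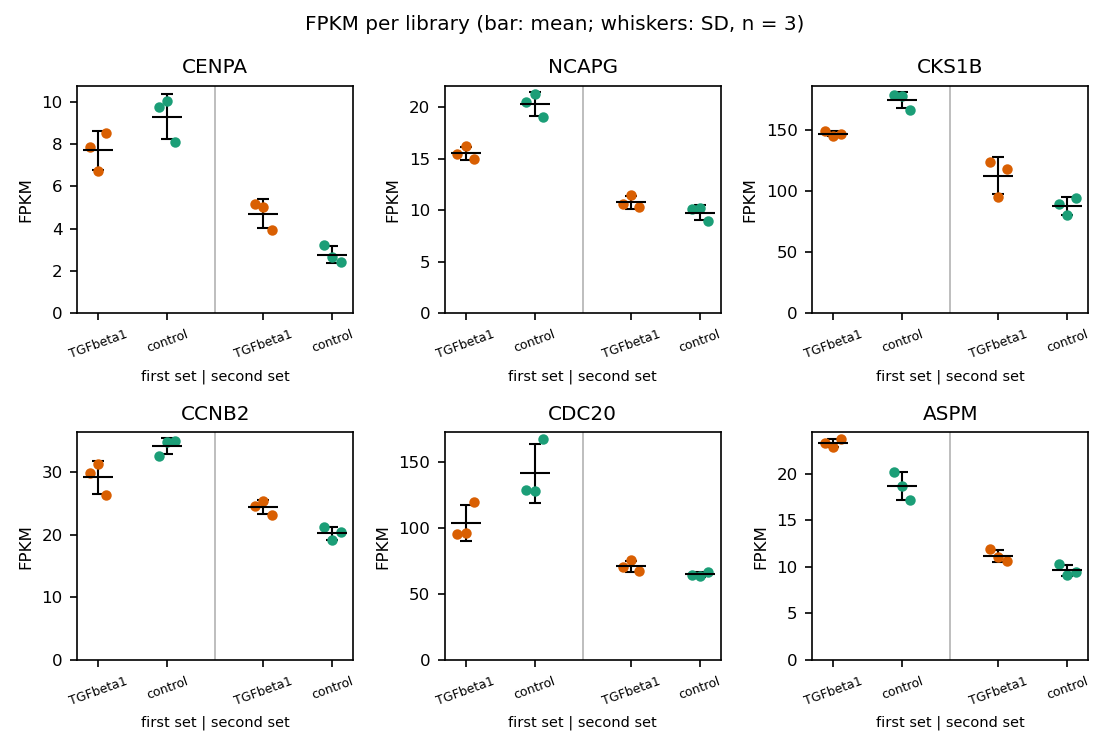
FPKM per library of the 5 genes whose change differed between the sets and of ASPM, with TGFbeta1 libraries left of the controls in each set. In CCNB2, CDC20, CKS1B and NCAPG the TGFbeta1 libraries lie below the controls in the first set and above them in the second, while ASPM lies above in both.

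Of the 5 genes, CCNB2 and CKS1B belong to the CDK1 regulators and the others to a role each. By the deposited coordinates (hg19), CENPA spans chr2:27008865-27017461 (+ strand), NCAPG chr4:17812525-17846485 (+ strand) and CCNB2 chr15:59397277-59417244 (+ strand). CKS1B spans chr1:154947129-154951725 (+ strand) and CDC20 chr1:43824626-43828874 (+ strand). ASPM spans chr1:197053258-197115824 (- strand). All 6 carry a CHR in the promoter windows shown above, and so do PLK1 and MKI67, for which the difference was not called. Over both sets together, with the set as a term, 0 of the 44 genes were called by limma, where 0.502% of 10548 genes were called, 0.313% higher and 0.190% lower. At an unadjusted p under 0.05, 4 of the 44 were higher and 0 lower, where 8.16% and 11.0% of all genes were. The smallest adjusted p-values there belonged to ASPM (log2 change 0.25, SE 0.06, limma adjusted p 0.108), DLGAP5 (0.17, SE 0.06, limma adjusted p 0.18) and NUSAP1 (0.18, limma adjusted p 0.221).

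Base levels also differed between the sets, which were normalised separately, so the ratio of control means, first set over second, carries that difference as well. The same ratio over all genes was not computed. Different transcripts are also listed for some genes in the 2 sets, as for BIRC5 with 6 in the first and 3 in the second. The control mean in the first set over that in the second had a median of 1.94 over the 44 genes and was above 1 for 41 of them. This ratio ran from 0.62 for CDC25B to 8.63 for BIRC5, with 4.72 for PLK1, 4.29 for BUB1, 3.79 for FOXM1 and 3.35 for CENPA. BUB3 (0.79) and CDC25C (0.98) were the other genes under 1. On the per-length scale of FPKM the order of levels was led by CKS1B in TGFbeta1 libraries of both sets (147 FPKM in the first and 113 FPKM in the second), while CDC25C (7.57 FPKM) was lowest in the first and CENPA (4.71 FPKM) in the second. Among controls the highest means were those of CKS1B for the first set (174 FPKM) and CDC25B for the second (103 FPKM), and the lowest those of CDC25C (6.52 FPKM) and CENPA (2.77 FPKM).

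The median coefficient of variation over the 44 was 5.5% in TGFbeta1 libraries and 7.8% in controls of the first set. It was 8.6% in TGFbeta1 libraries and 6.7% in controls of the second set. The widest spreads were those of CCNA2 in TGFbeta1 libraries (SD 10.49 FPKM on a mean of 23.9) and CKS2 in controls (46.1%) of the first set, and of CDC25B in TGFbeta1 libraries (40.4%) and AURKB in controls (22.5%) of the second.

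Summing to genes hides how fragments were shared among transcripts. The 44 genes had 187 transcripts in the first set, of which 119 passed the filter and 0 were called by limma, where 5.54% of 18113 transcripts were called. At an unadjusted p under 0.05, 3 were higher and 10 lower, and the lowest adjusted p was 0.092. Of the second set 100 of 146 transcripts passed the filter and 0 were called, where 0.221% of 20392 were called. There 9 were higher and 2 lower at an unadjusted p under 0.05. The share of all transcripts at that unadjusted threshold was not computed in either set, so these counts have nothing to be set against. In the authors' deposited table of the second set 0 of those 146 transcripts had a q-value under 0.05, where 28 of 29204 had one. Its lowest q-value among them was 0.433, for a transcript of DLGAP5, with a log2 fold change of 0.49. The other DLGAP5 transcript in that table changed in the opposite direction, with a log2 fold change of -0.492 (deposited q-value 0.744).

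CCNB1, NUSAP1 and CDC25B, chosen after their values were seen, show how that sharing varied. CCNB1-001 had 65.7, 58.1 and 56.4 FPKM in TGFbeta1 libraries of the first set, against 88.2, 65.6 and 111 FPKM in controls. CCNB1-003 ran opposite to it, with 27.3, 36.3 and 33.7 FPKM in TGFbeta1 libraries, against 4.86, 40.1 and 2.70 FPKM in controls. Control 2 was low in the one and high in the other, while the sum of CCNB1 stayed between 97.2 and 128 FPKM in all 6 libraries. NUSAP1-006 had 19.9, 8.61 and 22.1 FPKM in TGFbeta1 libraries of the first set and 9.82, 21.5 and 8.30 FPKM in controls. NUSAP1-001 had 1.998, 12.1 and 1.61 FPKM in those TGFbeta1 libraries and 10.7, 1.79 and 11.4 FPKM in those controls, in the mirror image of NUSAP1-006. Second-set values of CDC25B-202 were 5.72, 51.1 and 50.2 FPKM in TGFbeta1 libraries and 45.7, 0 and 48.1 FPKM in controls. It was listed at 0 in control 5, where CDC25B-205 had 89.2 FPKM and the gene as a whole had 94.2 FPKM. TGFbeta1 library 4 showed no such exchange between them, since CDC25B-205 was also low there (22.5 FPKM) and the gene as a whole had 51.1 FPKM.

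**Figure D5:**
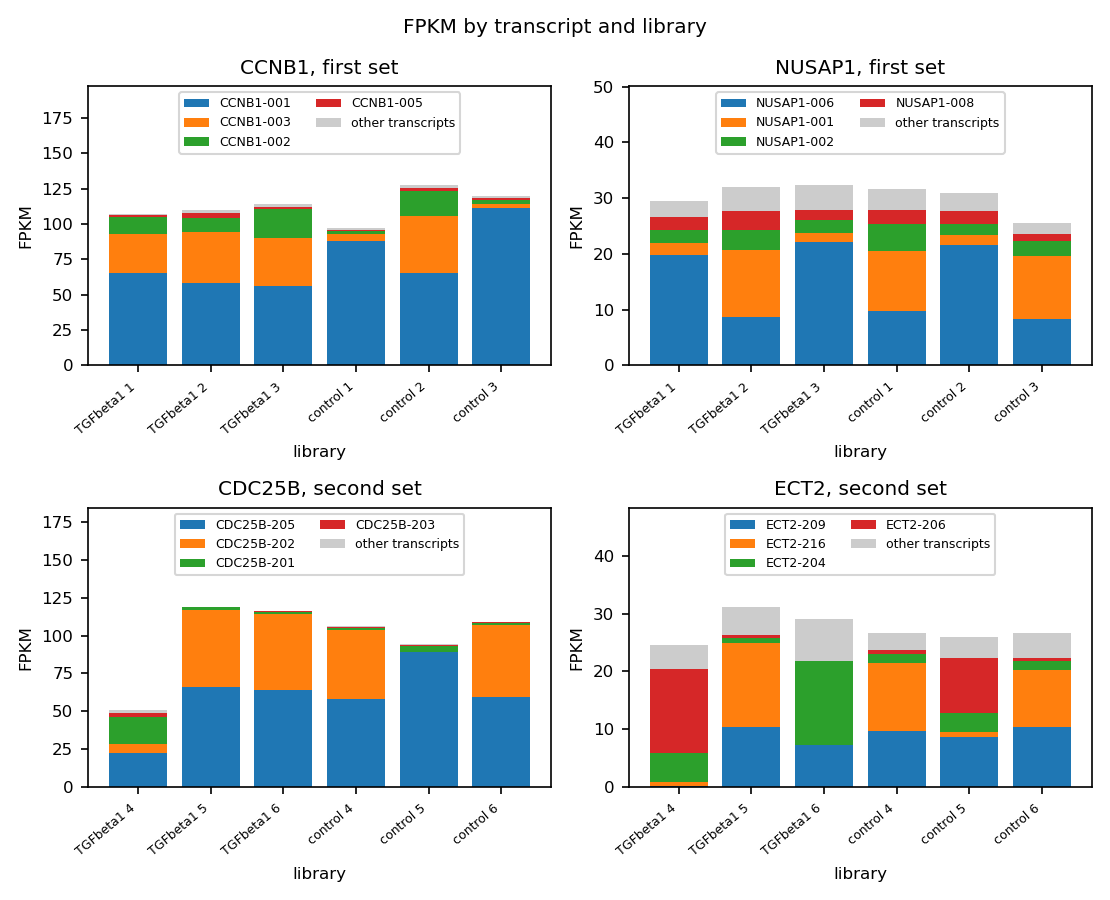
FPKM by transcript of CCNB1 and NUSAP1 in the first set and of CDC25B and ECT2 in the second. Each library is 1 stacked bar, with TGFbeta1 libraries left of the controls and the less abundant transcripts summed as others. CCNB1-003 had 27.3 to 36.3 FPKM in TGFbeta1 libraries and 4.86, 40.1 and 2.70 FPKM in controls.

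Other genes of the cell cycle were taken from lists of general knowledge. Of 57 other mitotic genes tested in the first set 3 were called higher and 3 lower (5.26% each), with a median log2 change of -0.03. There 9.00% of all genes were called higher and 11.9% lower. The smallest adjusted p-values among the other mitotic genes were those of FAM83D, a spindle protein (log2 change -1.31, SE 0.21, limma adjusted p 0.0102), KIF14, a motor of cytokinesis (0.33, limma adjusted p 0.0193), and KIF22, a chromosome-binding motor (-0.29, limma adjusted p 0.0237). In the second set 0 of 58 were called by limma, the median was 0.10, and FAM83D had a log2 change of 0.26 (limma adjusted p 0.214). At an unadjusted p under 0.05, 5 of the 58 were higher and 0 lower, where 5.79% and 5.39% of all genes were.

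In the first set 9.00% of all genes were called higher and 11.9% lower. Regulators of mitotic entry and exit gave 0 higher and 3 lower (12.5%) of 24 there, with a median of -0.09. The 3 were ANAPC1, a subunit of the anaphase-promoting complex (-0.35, limma adjusted p 0.0208), PKMYT1, a kinase that inhibits CDK1 (-0.40, limma adjusted p 0.024), and UBE2S, the enzyme that extends ubiquitin chains for that complex (-0.25, limma adjusted p 0.0316). Of 20 genes of the DREAM and MYB-MuvB complexes 1 was called higher, RBBP4 (0.26, limma adjusted p 0.0388), and 1 lower, RBL1 (the pocket protein p107, -0.295, limma adjusted p 0.0489), while MYBL2 (B-MYB) had -0.41 and was not called (limma adjusted p 0.0526). In the second set 0 genes of either list were called by limma, with medians of 0.03 and 0.01. At an unadjusted p under 0.05 there were 1 higher and 2 lower entry and exit regulators, and 2 higher and 0 lower genes of those complexes. Of all genes 5.79% were higher and 5.39% lower at that threshold.

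Genes of DNA replication and the G1/S transition, earlier steps of the cycle, gave 13 called lower and 0 higher of 38 in the first set, where 11.9% of all genes were called lower and 9.00% higher, with a median of -0.25. The 44 mitotic genes there gave 2 lower and 1 higher with a median of -0.03, and the difference between those lists was not tested. MCM5, a subunit of the replicative helicase, had a log2 change of -0.66 (limma adjusted p 0.00462), and PRIM1, the small subunit of primase, one of -0.48 (limma adjusted p 0.0052). POLA1, the catalytic subunit of DNA polymerase alpha, had -0.515 (limma adjusted p 0.00751). In the second set 0 of the replication genes were called by limma, and the median was 0.01. At an unadjusted p under 0.05, 2 were higher and 3 lower, where 5.79% and 5.39% of all genes were. The interaction was called positive for 10 of the 38 and negative for 0, where 7.56% and 6.06% of all genes were. The 10 became 5, 2 and 3 under median-of-ratios, equal-sum and quantile scaling.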

How the data were processed

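RNA of 12 MCF-12A libraries, 6 TGFbeta1 and 6 control, was extracted with Trizol and prepared by an Illumina procedure, per the labels' protocols. FastQC, cutadapt, HISAT2 2.0.4, StringTie 1.2.3 and build hg19 are named in the submitters' processing notes, and their settings, the strandedness and the annotation release are not stated there. The authors deposited FPKM per transcript in 2 tables. The second set's group means are headed FPKM, per the file headers, while the unit of the first set was inferred from its values. Alongside the second table the authors deposited q-values, p-values and fold changes (linear and log2 of FPKM + 1) for each transcript, used only where named. The tables list 44112 and 29204 transcripts, with lowest mean FPKM of 0.025 and 0.25, and their library sums of FPKM run from 291801.6 to 318269.5 and from 338968.0 to 358432.6.

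Transcripts were summed per gene symbol. Genes averaging 1 FPKM or more were fitted on log2(FPKM + 1) with limma 3.58.1 (R 4.3.3, empirical Bayes with trend, two-sided, Benjamini-Hochberg adjustment over all genes, called at an adjusted p under 0.05), within each set, over both sets with a set term, and as an interaction. A log2(FPKM + 1) change understates the change of low genes, and FPKM moves with abundant genes. The scripts were tested on simulated data. Tables and plots used Python 3.11.15, pandas 2.3.3, numpy 2.4.6 and matplotlib 3.10.9. Promoter windows came from RefSeq (GRCh38.p14), a build other than that of the files, and were matched by symbol.

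The 44 genes, the gene lists and the roles were chosen with earlier results of these data known. Values in every library are given for 12 well-known genes spread over the roles, for every gene called in a comparison, and for the 3 with the smallest p in each. From each other list the 3 genes with the smallest p in the first set are named where the list had calls; others are stated as chosen after their values were seen, or given as changes only. Alternatives were another pseudocount, filter, scaling, variance model and gene definition, the replicate block, each library left out, and, added after seeing the data, tests per transcript.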

Additional observations from a re-analysis of the deposited data

Results flagged for a closer look

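The difference between TGFbeta1 and control libraries was not the same in the 2 sets, by limma's interaction test, in 5 of 44 mitotic genes (11.4%), where 13.6% of 10548 genes were called. The change in the second set minus that in the first was 0.84 for CENPA, 0.59 for CKS1B, 0.57 for CDC20, 0.49 for NCAPG and 0.49 for CCNB2 on the log2(FPKM + 1) scale. The call of CDC20 held in 3 of 12 fits with 1 library left out and in 3 of 10 other settings, and those of the other 4 genes held in all 12 such fits. In each gene the change was negative in the first set and positive in the second. The test answers only whether the 2 changes differ. The same test was called negative for 10 of 10 direct TGFbeta response genes, where 6.06% of all genes were, with a median difference of -3.50. That list was chosen with earlier results of these data known. Groups of 3 libraries are too small for a test of single outlying libraries.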

How the results depend on the processing

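Within the first set the count of mitotic genes called lower, 2, became 1 under median-of-ratios scaling and under limma without a trend, and 0 under equal-sum and under quantile scaling, and it ran from 0 to 3 with 1 library left out. The count called higher, 1, became 0 without a trend, with only transcripts in both tables (41 of the genes) and with any library left out. Tests per transcript, added after seeing the data, called 0 in either direction. The median log2 change of the 44 genes was 0.026, 0.055 and 0.049 under median-of-ratios, equal-sum and quantile scaling and -0.07 to -0.021 with 1 library left out. Of all genes, 1354 to 2030 were called with 1 library left out. Equal-sum scaling gave 1160 higher and 857 lower calls over all genes (57.5% higher), against 941 and 1245, and for the interaction 522 and 769 (40.4%), against 797 and 639 (55.5%). For the second set 17 genes were called under equal-sum scaling, 20 without a trend and 0 to 23 with 1 library left out, and the median of the 44 was 0.104 to 0.193 in those last fits. Over both sets 30 genes were called with a pseudocount of 0.1, and 10 to 82 with 1 library left out. The interaction was called in 2 mitotic genes under equal-sum scaling, in 3 under quantile scaling and in 4 to 6 with 1 library left out, and its median was 0.142 under equal-sum scaling, 0.147 under quantile scaling and 0.208 to 0.285 with 1 library left out. Calls of the second set and of both sets stayed at 0 of 44 under every alternative run. No depth is known for these FPKM, so counting error could not be set beside the low genes.

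With the replicate number as a block (replicate block), 0 mitotic genes were called higher and 1 lower in the first set, and 1211 genes in all. The 1 was CDC20 (adjusted p 0.0322), while ASPM (adjusted p 0.109), CKS1B (adjusted p 0.0854) and NCAPG (adjusted p 0.0587) lost their calls. The block left 0 genes called in the second set and 0 over both sets. The interaction was called in 4 mitotic genes, with CCNB2 losing its call (adjusted p 0.0687). Of the 38 replication genes the block left 5 called lower in the first set, and 2 positive and 1 negative in the interaction. The numbers share no stated origin. Deviations of same-numbered libraries had small positive correlations. These were 0.017, 0.017 and 0.007 for libraries 1 to 3, where pairs of unlike number ran from -0.026 to 0.009. For libraries 4 to 6 they were 0.046, 0.017 and 0.038, each above every pair of unlike number (-0.053 to 0.014). Whether same-numbered libraries belong together was not tested, so the fit with the block cannot be set aside on this ground.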
